A study of Mus musculus with 12 samples.

Results

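Lcn2, Havcr1, Spp1, Clu, Muc1, Cd44, Cd24a, Timp1, Timp2 and Edn1 are genes whose products are used as markers of tubular injury and repair in the kidney. They were taken by name from the deposited expression table, in which all 10 were found among 52015 genes. The rule that picked them used names alone, but the names were chosen with earlier results of these data known. The cells were mpkCCD cells, an immortalised mouse line that derives from principal cells of the cortical collecting duct. Scr cells, labelled WT, had been transduced with a scramble guide RNA that targets no gene, and Nfat5-KO cells were clones N1 and N3, in which Nfat5 had been deleted with CRISPR/Cas9. Each was cultured for 5 days in isotonic medium of 300 mosmol/kg or in hypertonic medium of 600 mosmol/kg, which was made by adding 100 mM NaCl and 100 mM urea. The 12 RNA-seq libraries fell into the groups Scr_300 and Scr_600 with 2 libraries each, and Nfat5-KO_300 and Nfat5-KO_600 with 4 libraries each, 2 per clone.

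NFAT5 is the transcription factor with which kidney cells answer a hypertonic environment, by inducing transporters and enzymes that accumulate organic osmolytes. After injury, tubular cells shed or secrete proteins that are measured in urine, such as lipocalin-2 (Lcn2, NGAL), kidney injury molecule 1 (Havcr1, KIM-1) and clusterin (Clu), and they change the adhesion molecules, matrix proteins and protease inhibitors with which they repair the epithelium. Several of these genes are also made by the undamaged collecting duct, where endothelin-1 (Edn1) acts as a local signal that lowers sodium reabsorption.

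The table held 1 value per gene and group, in FPKM (fragments per kilobase of gene, scaled to the number of mapped reads), and no value per library. The differences below therefore had no SD and no test, and a value of the Nfat5-KO groups could not be split by clone. A ratio is given as the log2 ratio of FPKM + 0.1 or as the fold it stands for. A gene was counted at a ratio of at least 2-fold, among the genes that reached 0.5 FPKM in either group compared. Several comparisons share a group and are therefore not independent of each other. Read depth per library is unknown, since FPKM keep no counts. In RNA from whole cultures, fewer cells that express a gene and less RNA per cell cannot be told apart.

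Nfat5 itself, the targeted gene, had 5.61 FPKM in Scr_300 and 7.93 in Scr_600, against 3.47 in Nfat5-KO_300 and 6.88 in Nfat5-KO_600. Its transcript was thus lower in Nfat5-KO than in Scr at each osmolality, but still present, and the transcript level does not show whether protein was made. Akr1b3, the aldose reductase gene and a classic NFAT5 target, had 23.8 and 175 FPKM in Scr_300 and Scr_600 and 14.5 and 39.2 FPKM in Nfat5-KO_300 and Nfat5-KO_600. Of 14 principal cell and epithelial markers, 8 reached 0.5 FPKM in a group, among them Aqp3, Gata3, Cdh1 and Krt8. The water channel gene Aqp2, which defines principal cells, was at most 0.245 FPKM in any group, and Avpr2, Scnn1b and Scnn1g were under 0.5 FPKM too. Of the genes typical of principal cells, as against epithelia in general, Aqp3, Scnn1a, Hsd11b2 and Gata3 reached the limit. The 6 fibroblast, 5 endothelial and 4 thick limb and distal tubule markers were all under 0.5 FPKM, and of 6 intercalated cell markers Atp6v1b1 alone exceeded it, with at most 0.973 FPKM.

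To show the DNA at which transcription of the markers starts, the stretch from 250 bases before to 20 bases after the start in RefSeq (assembly GRCm38.p6) is printed for 4 markers, 5′ to 3′ on the strand of the gene. Lcn2 and Muc1 stand for the markers that were higher in Scr_600 than in Scr_300, and Timp1 and Cd44 for those that were lower at 600 mosmol/kg in both genotypes. Capitals mark matches, on either strand, to 4 short motifs: TGGAAA, the core of the sites bound by NFAT proteins including NFAT5, TGANTCA, the AP-1 site, TATAAA, the TATA box, and GGGCGG, the GC box. Positions count from the first transcribed base as +1 to the leftmost base of a match.
Lcn2: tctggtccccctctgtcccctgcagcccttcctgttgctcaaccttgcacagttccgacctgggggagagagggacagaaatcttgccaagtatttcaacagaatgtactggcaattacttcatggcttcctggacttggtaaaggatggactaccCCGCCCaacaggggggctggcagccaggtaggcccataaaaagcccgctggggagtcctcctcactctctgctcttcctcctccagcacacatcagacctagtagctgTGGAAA
Muc1: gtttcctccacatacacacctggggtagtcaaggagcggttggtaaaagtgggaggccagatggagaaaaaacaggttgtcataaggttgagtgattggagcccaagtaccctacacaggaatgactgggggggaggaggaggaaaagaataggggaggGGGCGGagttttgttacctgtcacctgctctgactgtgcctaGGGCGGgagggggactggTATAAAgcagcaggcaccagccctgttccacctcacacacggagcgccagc
Timp1: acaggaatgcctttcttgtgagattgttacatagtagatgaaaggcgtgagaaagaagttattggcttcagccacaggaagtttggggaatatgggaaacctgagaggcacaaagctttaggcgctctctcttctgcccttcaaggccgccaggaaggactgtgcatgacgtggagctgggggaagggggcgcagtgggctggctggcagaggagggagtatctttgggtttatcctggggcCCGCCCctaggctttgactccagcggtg
Cd44: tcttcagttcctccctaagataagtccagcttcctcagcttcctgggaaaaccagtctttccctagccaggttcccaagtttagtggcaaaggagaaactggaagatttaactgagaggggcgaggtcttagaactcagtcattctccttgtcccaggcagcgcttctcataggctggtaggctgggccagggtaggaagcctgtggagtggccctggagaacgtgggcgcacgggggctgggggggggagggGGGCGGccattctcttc
The Lcn2 stretch is chr2:32387720-32387989 on the minus strand and lies inside the longer Lcn2 gene of the GENCODE annotation. That of Muc1 is chr3:89228806-89229075 on the plus strand, that of Timp1 is chrX:20869916-20870185 on the plus strand, and that of Cd44 is chr2:102901646-102901915 on the minus strand.

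A window of 300 bases, from 250 before to 50 after the start, was in the RefSeq table for 8 of the 10 markers, and these had 11 windows because Havcr1 has 3 and Spp1 has 2. The NFAT core TGGAAA was in 1 window of Lcn2, at +15, and in 1 window of Spp1, at -203. Among all 32851 windows of the table, 21.4% held it. The TATA box motif was in the window of Muc1, at -31, and in 1 window of Spp1, at -211, against 13.6% of all windows. A GC box was in the windows of Lcn2 (-94), Muc1 (-91 and -49), Cd44 (+4), Timp1 (-8) and Timp2 (-37), and in 35.7% of all windows. The AP-1 site was in 1 window of Havcr1, at +11, and in 7.81% of all windows, and the window of Edn1 held none of the 4 motifs. Such matches describe these letters only. They do not show where a factor bound.

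The levels of the markers spanned a wide range. Cd24a was the most abundant in every group and made up 36.8% of the summed FPKM of the 10 markers in Scr_300, 45.3% in Scr_600, 31.8% in Nfat5-KO_300 and 43.0% in Nfat5-KO_600. The sum itself was 437 FPKM in Scr_300, 872 in Scr_600, 440 in Nfat5-KO_300 and 490 in Nfat5-KO_600. The highest group was Scr_600 for 5 markers (Lcn2, Cd24a, Muc1, Spp1 and Edn1), Nfat5-KO_300 for Timp1 and Cd44, Nfat5-KO_600 for Timp2 and Havcr1, and Scr_300 for Clu. From the highest to the lowest group, Timp2 spanned 1.36-fold, Timp1 6.84-fold and Havcr1 8.24-fold. The place of Havcr1 above Timp1 depended on the 0.1 FPKM added, as both its Scr values were under 0.5 FPKM: with 1 FPKM added, its log2 ratio in Nfat5-KO_600 against Scr_600 was 1.38, while that of Timp1 in Nfat5-KO_600 against Nfat5-KO_300 was -2.55.

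**Figure D1:**
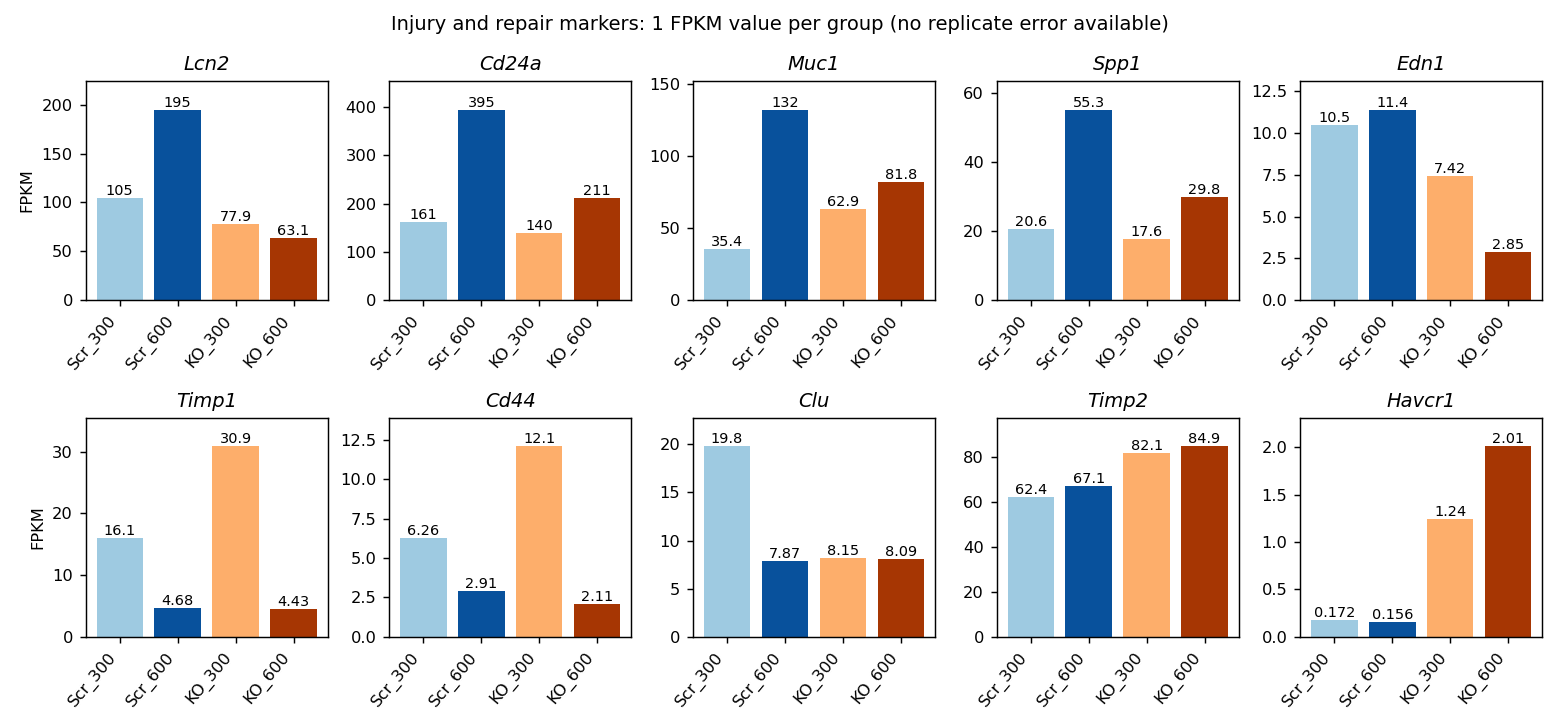
Level of each of the 10 markers in FPKM (linear axis from 0, its own scale per gene) in Scr_300, Scr_600, KO_300 and KO_600, where KO is Nfat5-KO. Each bar is the 1 deposited value of the group, so no error bar can be drawn. The bar of Scr_600 is the tallest for Lcn2, Cd24a, Muc1, Spp1 and Edn1, and those of KO_300 are the tallest for Timp1 and Cd44.

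Lcn2 encodes lipocalin-2, a secreted protein that binds bacterial siderophores and serves as a urinary marker of tubular injury. The gene lies on chromosome 2 from 32384633 to 32388252 on the minus strand (GRCm38). It had 105 and 195 FPKM in Scr cells at 300 and 600 mosmol/kg, and 77.9 and 63.1 FPKM in Nfat5-KO cells at these osmolalities. Scr_600 was thus the highest group and Nfat5-KO_600 the lowest, and the level was higher at 600 than at 300 mosmol/kg in Scr cells but lower in Nfat5-KO cells. The log2 ratio of 600 against 300 mosmol/kg was 0.89 in Scr and -0.30 in Nfat5-KO cells. Between the genotypes it was -0.43 at 300 and -1.63 at 600 mosmol/kg, and the latter, a 3.09-fold lower level in Nfat5-KO_600, lay at percentile 1.46 of all genes measured. The receptors described for lipocalin-2 were scarce in Scr cells: Slc22a17 was at most 0.00630 FPKM in any group, and Lrp2, the gene of megalin, was at most 0.0116 FPKM in Scr cells, 0.168 FPKM in Nfat5-KO_300 and 1.07 in Nfat5-KO_600.

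Clu encodes clusterin, an extracellular chaperone that binds misfolded proteins and lipids. It lies on chromosome 14 from 65968483 to 65981547 on the plus strand. Its level was 19.8 and 7.87 FPKM in Scr_300 and Scr_600, and 8.15 and 8.09 FPKM in Nfat5-KO_300 and Nfat5-KO_600. Scr_300 stood apart, and the other groups lay close to each other. Clu was therefore 2.49-fold lower in Scr_600 than in Scr_300 and 2.41-fold lower in Nfat5-KO_300 than there, while the ratio of both osmolalities in Nfat5-KO cells was 1.01-fold (a log2 ratio of -0.01, which became 0.23 when the columns were scaled to an equal FPKM sum) and that of both genotypes at 600 mosmol/kg 1.03-fold. Among the lipoprotein receptors that bind clusterin, Vldlr had 10.7 FPKM in Scr_300 and 5.23 in Scr_600, against 7.18 in Nfat5-KO_300 and 7.63 in Nfat5-KO_600, also highest in Scr_300. Lrp8 differed little, with 2.35 to 2.94 FPKM in the 4 groups.

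Havcr1 encodes kidney injury molecule 1, a membrane receptor with which injured tubular cells, above all those of the proximal tubule, take up apoptotic debris. The gene lies on chromosome 11 from 46735080 to 46779578 on the plus strand. It had 0.172 and 0.156 FPKM in Scr cells at 300 and 600 mosmol/kg, and 1.24 and 2.01 FPKM in Nfat5-KO cells at these osmolalities. Both Scr groups were under the limit of 0.5 FPKM and both Nfat5-KO groups above it, so once measured Havcr1 had to be higher in Nfat5-KO cells. Havcr1 was also the marker with the lowest level in every group. Its fold in Nfat5-KO against Scr was 4.92 at 300 mosmol/kg (percentile 99.8 of all genes measured) and 8.24 at 600 mosmol/kg (percentile 99.9). These folds depend on the value added before the ratio was taken: with 1 FPKM in place of 0.1 FPKM, the log2 ratio at 300 mosmol/kg was 0.93 in place of 2.30 and that at 600 mosmol/kg 1.38 in place of 3.04. Of its relatives, Havcr2, Timd2 and Timd4 were at most 0.157 FPKM in any group. The 6 proximal tubule markers summed to 23.7 and 318 FPKM in Scr_300 and Scr_600 and to 0.855 and 3.69 FPKM in Nfat5-KO_300 and Nfat5-KO_600. Nearly all of this was Aqp1, except in Nfat5-KO_300, where Aqp1 had 0.653 and Cubn 0.194 FPKM. The 5 markers other than Aqp1 were at most 0.194 FPKM in any group. Cubn, the highest of these, had 0.0443 and 0.0353 FPKM in Scr_300 and Scr_600 and 0.194 and 0.156 FPKM in Nfat5-KO_300 and Nfat5-KO_600. The water channel gene Aqp1 went the opposite way to Havcr1 between the genotypes, with 23.6 and 318 FPKM in Scr_300 and Scr_600, and 0.653 and 3.51 FPKM in Nfat5-KO_300 and Nfat5-KO_600. The part of the low Cubn and Lrp2 signal in the Havcr1 result was not tested.

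Spp1 encodes osteopontin, a secreted phosphoprotein of the matrix that binds integrins and CD44. It lies on chromosome 5 from 104435118 to 104441050 on the plus strand and shares 309 exon bases with the unclassified gene Gm42793, which was at most 0.144 FPKM. The level of Spp1 was 20.6 FPKM in Scr_300 and 55.3 in Scr_600, against 17.6 in Nfat5-KO_300 and 29.8 in Nfat5-KO_600. It was higher at 600 mosmol/kg in both genotypes, 2.68-fold in Scr and 1.69-fold in Nfat5-KO cells. At 600 mosmol/kg the log2 ratio of Nfat5-KO against Scr was -0.89.

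Cd44 encodes the receptor of hyaluronan and of osteopontin that repairing tubular cells carry on their surface. It lies on chromosome 2 from 102811141 to 102901665 on the minus strand. The level was 6.26 and 2.91 FPKM in Scr cells at 300 and 600 mosmol/kg, and 12.1 and 2.11 FPKM in Nfat5-KO cells at these osmolalities. Both groups at 300 mosmol/kg were above both groups at 600 mosmol/kg. Cd44 was 5.54-fold lower at 600 than at 300 mosmol/kg in Nfat5-KO cells, at percentile 0.254 of all genes measured, and 2.11-fold lower in Scr cells. The osteopontin receptor subunits Itgav and Itgb1 varied little, at 9.64 to 13.5 FPKM and at 130 to 149 FPKM. Itgb5 had 33.7 and 37.4 FPKM in Scr_300 and Scr_600, and 31.4 and 66.2 FPKM in Nfat5-KO_300 and Nfat5-KO_600, and Itgb3 was at most 0.607 FPKM. The hyaluronan synthases Has1, Has2 and Has3 were under 0.5 FPKM in each group. Without Spp1 and Cd44, 18 genes were listed for osteopontin, CD44 and hyaluronan. Between the genotypes 10 of them were measured at 300 and 11 at 600 mosmol/kg, and none passed 2-fold, which at the shares of all genes (1.73% higher and 2.44% lower at 300, 3.76% and 3.68% at 600 mosmol/kg) is no result about these genes.

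Muc1 encodes a transmembrane mucin of the apical surface. It lies on chromosome 3 from 89229057 to 89233381 on the plus strand. Muc1 had 35.4 FPKM in Scr_300 and 132 in Scr_600, against 62.9 in Nfat5-KO_300 and 81.8 in Nfat5-KO_600. Both Nfat5-KO groups lay between both Scr groups. Muc1 was 3.74-fold higher at 600 than at 300 mosmol/kg in Scr cells, which was the largest fold of any marker in that comparison, against 1.30-fold in Nfat5-KO cells. Compared with Scr, its level in Nfat5-KO was higher at 300 mosmol/kg, with a log2 ratio of 0.83, and lower at 600 mosmol/kg, with a log2 ratio of -0.69. The mucin gene Muc20 likewise had its highest level in Scr_600, with 8.16 and 23.6 FPKM in Scr cells at 300 and 600 mosmol/kg, and 8.58 and 7.11 FPKM in Nfat5-KO cells at these osmolalities, and Muc4, Muc13, Muc15 and Muc16 were under 0.5 FPKM.

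Cd24a encodes a small glycoprotein that is anchored in the membrane by a lipid and marks epithelial progenitor and repairing cells. It lies on chromosome 10 from 43578284 to 43584265 on the plus strand. Its level was 161 and 395 FPKM in Scr_300 and Scr_600, and 140 and 211 FPKM in Nfat5-KO_300 and Nfat5-KO_600. The order of the groups was that of Spp1. Cd24a was 2.46-fold higher at 600 mosmol/kg in Scr and 1.51-fold higher in Nfat5-KO cells, and its log2 ratio in Nfat5-KO against Scr was -0.20 at 300 and -0.91 at 600 mosmol/kg. The processed pseudogene Gm6212, which had no value in the table used here, matches the Cd24a transcript at 96.8% over 218 bases, and Gm15352 matches it at 92.3% over 259 bases and was listed at 0 in each group. How reads that fit more than 1 of these copies were assigned is not given in the sources used here, so the level of Cd24a is uncertain to that extent.

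Timp1 and Timp2 encode secreted tissue inhibitors of metalloproteinases, and TIMP2 is one of the urinary proteins used to assess the risk of acute kidney injury. Timp1 lies on chromosome X from 20870166 to 20874735 on the plus strand, within Syn1 on the other strand, which was at most 0.0822 FPKM. Timp1 had 16.1 FPKM in Scr_300 and 4.68 in Scr_600, against 30.9 in Nfat5-KO_300 and 4.43 in Nfat5-KO_600. Both groups at 600 mosmol/kg were low and close to each other, at a ratio of 1.06-fold, while Nfat5-KO_300 was 1.91-fold higher than Scr_300. Timp1 was 3.39-fold lower at 600 than at 300 mosmol/kg in Scr cells (percentile 0.758 of all genes measured) and 6.84-fold lower in Nfat5-KO cells (percentile 0.108).

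Timp2 lies on chromosome 11 from 118301069 to 118355740 on the minus strand and encloses Cep295nl, with which it shares no exon base. Its level was 62.4 and 67.1 FPKM in Scr cells at 300 and 600 mosmol/kg, and 82.1 and 84.9 FPKM in Nfat5-KO cells at these osmolalities. Of the 10 markers it varied the least, and both Nfat5-KO groups were above both Scr groups. Since Timp1 was low at 600 mosmol/kg and Timp2 was not, the ratio of Timp2 to Timp1 FPKM was 3.87 in Scr_300, 14.3 in Scr_600, 2.66 in Nfat5-KO_300 and 19.2 in Nfat5-KO_600. Timp3 and Timp4 were at most 0.0944 FPKM. Among the proteases, the gelatinase gene Mmp2 was under 0.5 FPKM in each group, and Mmp14, a membrane-bound activator of it, had 10.3 and 10.3 FPKM in Scr_300 and Scr_600, and 17.1 and 11.2 FPKM in Nfat5-KO_300 and Nfat5-KO_600. The sheddase genes Adam10 and Adam17 lay between 19.2 and 24.8 FPKM. Adamts1 had 56.0 FPKM in Scr_300 and 73.8 in Scr_600, against 55.5 in Nfat5-KO_300 and 19.5 in Nfat5-KO_600, so that Nfat5-KO_600 was the low group. Of the 9 measured protease and inhibitor genes other than Timp1 and Timp2, 2 passed 2-fold downwards from Scr_600 to Nfat5-KO_600, against 3.68% of all genes. These were Adamts1 and Mmp15. Mmp15 had 0.686 FPKM in Scr_600 and 0.281 in Nfat5-KO_600. It reached 0.5 FPKM through Scr_600 alone, so once measured it had to be lower in Nfat5-KO_600.

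Edn1 encodes the precursor of endothelin-1. It lies on chromosome 13 from 42301476 to 42307990 on the plus strand. The level was 10.5 and 11.4 FPKM in Scr cells at 300 and 600 mosmol/kg, and 7.42 and 2.85 FPKM in Nfat5-KO cells at these osmolalities. Both Scr groups were above both Nfat5-KO groups, and Nfat5-KO_600 was the lowest. Edn1 was 2.55-fold lower at 600 than at 300 mosmol/kg in Nfat5-KO cells, against a ratio of 1.08-fold in Scr cells, and its level in Nfat5-KO_600 was 3.90-fold below that in Scr_600, at percentile 0.926 of all genes measured. The antisense gene Gm47118 shares 35 exon bases with Edn1 and was at most 1.38 FPKM. Whether the counting used the strand of the reads is not given in the sources used here, so a small share of their reads could not be told apart.

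Edn2, the other endothelin gene above the limit, had 2.90 and 0.810 FPKM in Scr_300 and Scr_600, and 3.12 and 0.407 FPKM in Nfat5-KO_300 and Nfat5-KO_600. Unlike Edn1 it was lower at 600 mosmol/kg in both genotypes, with log2 ratios of -1.72 in Scr and -2.67 in Nfat5-KO cells. The second of these ratios could only be negative once Edn2 was measured, because Nfat5-KO_300 alone brought it to 0.5 FPKM. The contrast with Edn1 therefore rests on the Scr ratio, for which both Edn2 values were above the limit. The endothelin receptors Ednra and Ednrb were at most 0.00681 FPKM, and the converting enzyme gene Ece1 was at most 0.0493 FPKM. Mme, the gene of the endothelin-degrading protease neprilysin, lay between 5.45 and 8.54 FPKM.

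The first comparison asked which markers differ when Scr cells are kept in hypertonic medium. In Scr_600 against Scr_300, 9 markers were measured and Havcr1 was under the limit of 0.5 FPKM in both groups. Spp1, Muc1 and Cd24a were at least 2-fold higher, among all genes 4.81% (622 of 12929). Clu, Cd44 and Timp1 were at least 2-fold lower, among all genes 2.86% (370). Lcn2, Timp2 and Edn1 were within 2-fold. The median log2 ratio was 0.12 over the 9 markers and -0.04 over all genes measured. When the columns were scaled to an equal FPKM sum, Lcn2 passed 2-fold, with a log2 ratio of 1.02, and Cd44 no longer did, with -0.95.

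In Nfat5-KO_600 against Nfat5-KO_300, none of the 10 markers was at least 2-fold higher, against 6.25% of all genes (812 of 12982). At this share a count of 0 among 10 is no result. Cd44, Timp1 and Edn1 were at least 2-fold lower, against 4.11% of all genes (534). Scaled to an equal FPKM sum, 1318 genes were higher and 274 lower in this comparison, and the marker counts were the same. The markers had a median log2 ratio of 0.02, and all genes one of -0.04. Spp1, Muc1 and Cd24a, at least 2-fold higher in the Scr cells, had folds of 1.69, 1.30 and 1.51 here.

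The genotypes were then compared in isotonic medium. In Nfat5-KO_300 against Scr_300, Havcr1 was at least 2-fold higher, against 1.73% of all genes (220 of 12704), and Clu was at least 2-fold lower, against 2.44% (310). Havcr1 reached the limit of 0.5 FPKM through the Nfat5-KO groups alone, so once measured it had to be higher there. Cd44 and Timp1 were close to the limit, with folds of 1.92 and 1.91 and percentiles of 98.0 each. The median log2 ratio was 0.10 over the 10 markers and 0.00 over all genes.

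In hypertonic medium, Nfat5-KO_600 against Scr_600, Havcr1 was at least 2-fold higher, against 3.76% of all genes (491 of 13063). Here too Havcr1 reached 0.5 FPKM through the Nfat5-KO group alone, so once measured it had to be higher there. Lcn2 and Edn1 were at least 2-fold lower, against 3.68% (481). With an equal FPKM sum, 654 genes were higher and 407 lower, with the same marker counts. Of the 10 markers 7 had a lower value in Nfat5-KO_600, and the median log2 ratio was -0.57 over the markers and -0.02 over all genes. The share of all genes with a lower value there is not given here, so the count of 7 is not read as a result about the markers. Timp1 was among the 7 only by a log2 ratio of -0.08, which became 0.05 with an equal FPKM sum.

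**Figure D2:**
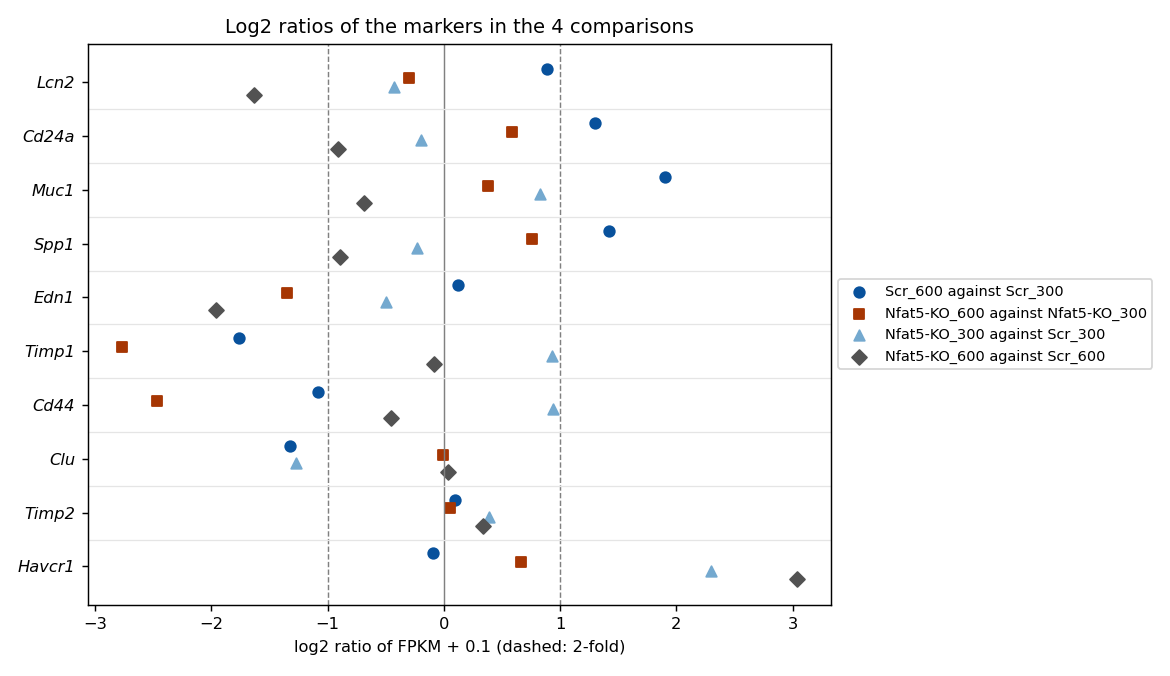
Log2 ratio of FPKM + 0.1 (horizontal axis) of each marker (rows) in the 4 comparisons, with dashed lines at 2-fold. Each symbol is 1 ratio of 2 group values, without an error. Circles (Scr_600 against Scr_300) of Muc1, Spp1 and Cd24a lie right of the upper line, and diamonds (Nfat5-KO_600 against Scr_600) of Lcn2 and Edn1 lie left of the lower one.

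The last quantity was the log2 ratio of 600 against 300 mosmol/kg in Nfat5-KO cells minus that in Scr cells, and these ratios share no library. It was at least 1 for Clu (1.31), against 3.88% of all genes (520 of 13414). It was at most -1 for Lcn2 (-1.20), Muc1 (-1.52), Cd44 (-1.39), Timp1 (-1.01) and Edn1 (-1.47), against 3.16% (424). With an equal FPKM sum the numbers for all genes were 670 and 340, and Timp1 was then at -0.90. Of the 10 markers 8 had a negative difference, with a median of -0.86 against -0.01 over all genes, and that of Timp2 (-0.06) changed its sign with an equal FPKM sum. The share of all genes with a negative difference is not given here, so the count of 8 is not read as a result about the markers. The negative differences came from unlike patterns. Muc1 was higher at 600 mosmol/kg in both genotypes and less so in Nfat5-KO, and Cd44 and Timp1 were lower in both and more so in Nfat5-KO. Lcn2 was higher in Scr and lower in Nfat5-KO cells. Edn1 was lower in Nfat5-KO cells and nearly level in Scr cells, with a log2 ratio of 0.12.

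**Figure D3:**
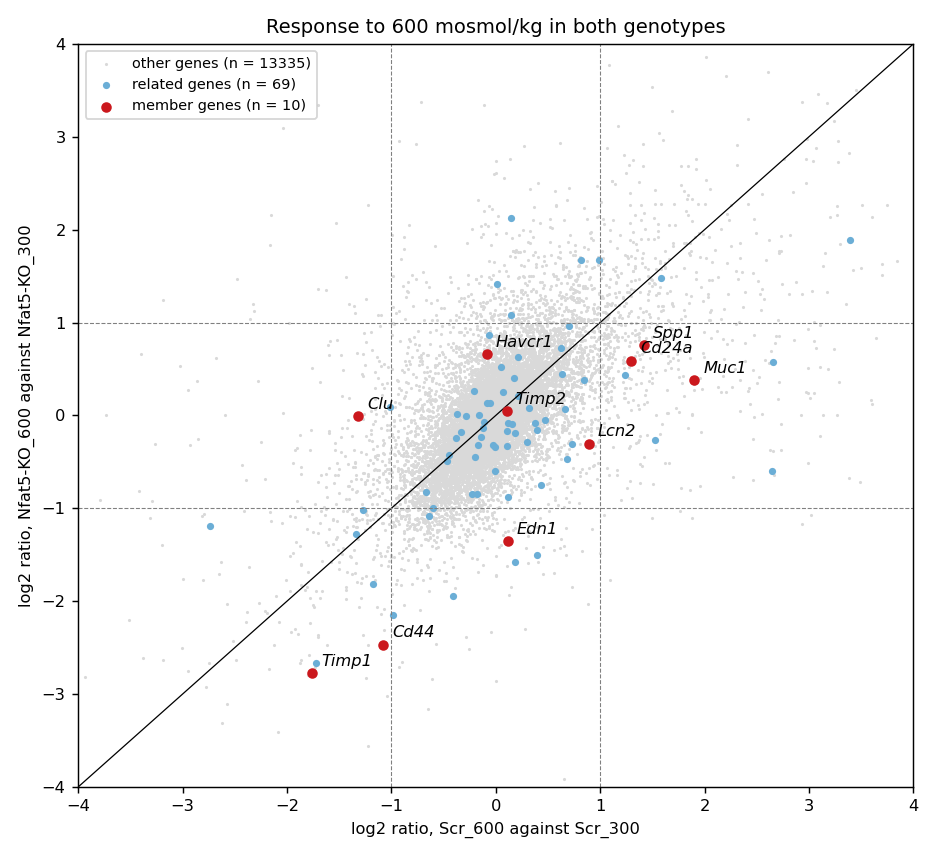
Log2 ratio of FPKM + 0.1 of 600 against 300 mosmol/kg in Scr (horizontal axis) and Nfat5-KO cells (vertical axis) for 13414 genes, with the 10 markers in red, 69 related genes in blue and all others in grey. Dashed lines mark 2-fold and the diagonal equal ratios. Below the diagonal lie 8 markers, and Clu and Havcr1 lie above it, while 16 genes outside the axes are not drawn. The share of all genes below the diagonal is not given here.

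Beside the markers, 116 related genes were listed (other injury markers, repair and fibrosis signals, receptors and partners), of which 115 were found and 69 reached 0.5 FPKM in a group. In Scr_600 against Scr_300, 8.82% of the 68 measured were at least 2-fold higher and 8.82% lower. In Nfat5-KO_600 against Nfat5-KO_300 these shares were 10.8% and 15.4% of 65. In Nfat5-KO_300 against Scr_300 they were 3.08% (2 genes) and 7.69% (5) of 65. In Nfat5-KO_600 against Scr_600 they were 2.94% (2 genes) and 17.6% (12) of 68. Each of these shares was above that of all genes except the higher genes in Nfat5-KO_600 against Scr_600, 2.94% against 3.76%. With 2 higher genes in each genotype comparison, against 1.73% and 3.76% of all genes, these counts are near the background and no result. The widest gap was that of the lower genes in the same comparison, 17.6% against 3.68%. These lower genes included Ccl2, Tnf, Tgfb2 and Mmp15, which reached 0.5 FPKM through Scr_600 alone. Once measured, they had to be lower in Nfat5-KO_600. Other shares held genes of such a fixed direction too. In Nfat5-KO_300 against Scr_300, Cp, Ccl2 and Mmp15 reached the limit through Scr_300 alone. At 600 against 300 mosmol/kg, Vcam1 in both genotypes and Edn2 in Nfat5-KO cells did so through the group at 300 mosmol/kg. Itgb3 in Scr cells, and Lrp2 and Cp in Nfat5-KO cells, did so through the group at 600 mosmol/kg. The lists were chosen with earlier results of these data known, so the shares describe them and nothing more.

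Of the other injury markers, 29 were listed and 22 reached 0.5 FPKM in a group. At 600 against 300 mosmol/kg, 4 of 22 were at least 2-fold lower and 1 was higher in Scr cells, against 2.86% and 4.81% of all genes. In Nfat5-KO cells 6 were lower and 3 higher, against 4.11% and 6.25%. The single higher gene in Scr cells was thus near the share of all genes. Vcam1, lower in both genotypes, reached 0.5 FPKM through the groups at 300 mosmol/kg alone. Cp, among the higher genes in Nfat5-KO cells, did so through Nfat5-KO_600 alone, so these directions were fixed once the genes were measured. Krt20, a keratin gene of injured tubules, had 18.7 FPKM in Scr_300 and 7.31 in Scr_600, against 42.6 in Nfat5-KO_300 and 17.5 in Nfat5-KO_600. It was lower at 600 mosmol/kg in both genotypes and higher in Nfat5-KO at both osmolalities, with log2 ratios of 1.18 and 1.25. Cp, the gene of the copper carrier ceruloplasmin, showed the opposite on both counts, with 3.27 and 10.0 FPKM in Scr cells at 300 and 600 mosmol/kg, and 0.426 and 1.37 FPKM in Nfat5-KO cells at these osmolalities. Between the genotypes at 300 mosmol/kg, Cp reached 0.5 FPKM through Scr_300 alone, so once measured it had to be lower in Nfat5-KO_300. Anxa1, the gene of the membrane-binding, anti-inflammatory protein annexin A1, had 242 and 275 FPKM in Scr_300 and Scr_600, and 128 and 42.6 FPKM in Nfat5-KO_300 and Nfat5-KO_600, and shared the order of its groups with Lcn2 and Edn1. Krt19, another keratin gene, had 154 and 67.9 FPKM in Scr_300 and Scr_600, and 173 and 49.3 FPKM in Nfat5-KO_300 and Nfat5-KO_600, so that like Cd44 and Timp1 it was low in both groups at 600 mosmol/kg. The adhesion molecule gene Vcam1 had 1.56 FPKM in Scr_300 and at most 0.702 FPKM in the others. Sox9, a transcription factor gene of repairing tubules, lay between 7.70 and 10.4 FPKM, and Vim, the mesenchymal vimentin gene, was at most 0.0101 FPKM. Complement C3 was highest in Nfat5-KO_600, with 43.5 FPKM in Scr_300 and 76.4 in Scr_600, against 39.1 in Nfat5-KO_300 and 125 in Nfat5-KO_600.

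Of 23 listed repair and fibrosis signals, 22 were found and 20 were measured in Nfat5-KO_600 against Scr_600. Of these, 7 were at least 2-fold lower, against 3.68% of all genes. None was higher, against 3.76%, a share at which a count of 0 among 20 is no result. Among the 7, Ccl2, Tnf and Tgfb2 reached 0.5 FPKM through Scr_600 alone, so once measured they had to be lower in Nfat5-KO_600. The 20 signals had a median log2 ratio of -0.80 against -0.02 over all genes. The chemokine gene Ccl2 had 0.640 and 4.52 FPKM in Scr cells at 300 and 600 mosmol/kg, and 0.0712 and 0.0129 FPKM in Nfat5-KO cells at these osmolalities. Cyr61, a secreted matricellular protein gene now named Ccn1, had 23.1 and 38.4 FPKM in Scr_300 and Scr_600, and 12.2 and 9.85 FPKM in Nfat5-KO_300 and Nfat5-KO_600. The neutrophil chemokine gene Cxcl1 had 25.5 FPKM in Scr_300 and 19.2 in Scr_600, against 20.7 in Nfat5-KO_300 and 5.31 in Nfat5-KO_600. Cyr61 and Cxcl1 shared with Lcn2 and Edn1 a lowest level in Nfat5-KO_600. Both Nfat5-KO values of Ccl2 were under 0.5 FPKM, too low to be ranked. Tgfb1, the central fibrosis cytokine, lay between 4.25 and 5.83 FPKM.

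In Scr_600 against Scr_300, 3 of the 20 measured signals were at least 2-fold higher, against 4.81% of all genes, and none was lower, against 2.86%. At the latter share a count of 0 among 20 is no result. Plat, the gene of tissue plasminogen activator, had 0.535 and 6.57 FPKM in Scr_300 and Scr_600, and 0.533 and 2.25 FPKM in Nfat5-KO_300 and Nfat5-KO_600. Thbs1, the gene of thrombospondin 1, an activator of TGF-beta, had 15.0 FPKM in Scr_300 and 95.0 in Scr_600, against 30.3 in Nfat5-KO_300 and 45.0 in Nfat5-KO_600, with the same order of groups as Muc1. The 8 immune markers summed to 5.90 and 5.06 FPKM in Scr cells at 300 and 600 mosmol/kg, and 2.99 and 3.10 FPKM in Nfat5-KO cells at these osmolalities, nearly all of it Cd68 and Csf1r. The defining leukocyte marker Ptprc was at most 0.0224 FPKM, and C1qa, Cd3e and Tyrobp were listed at 0 in each group.

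**Figure D4:**
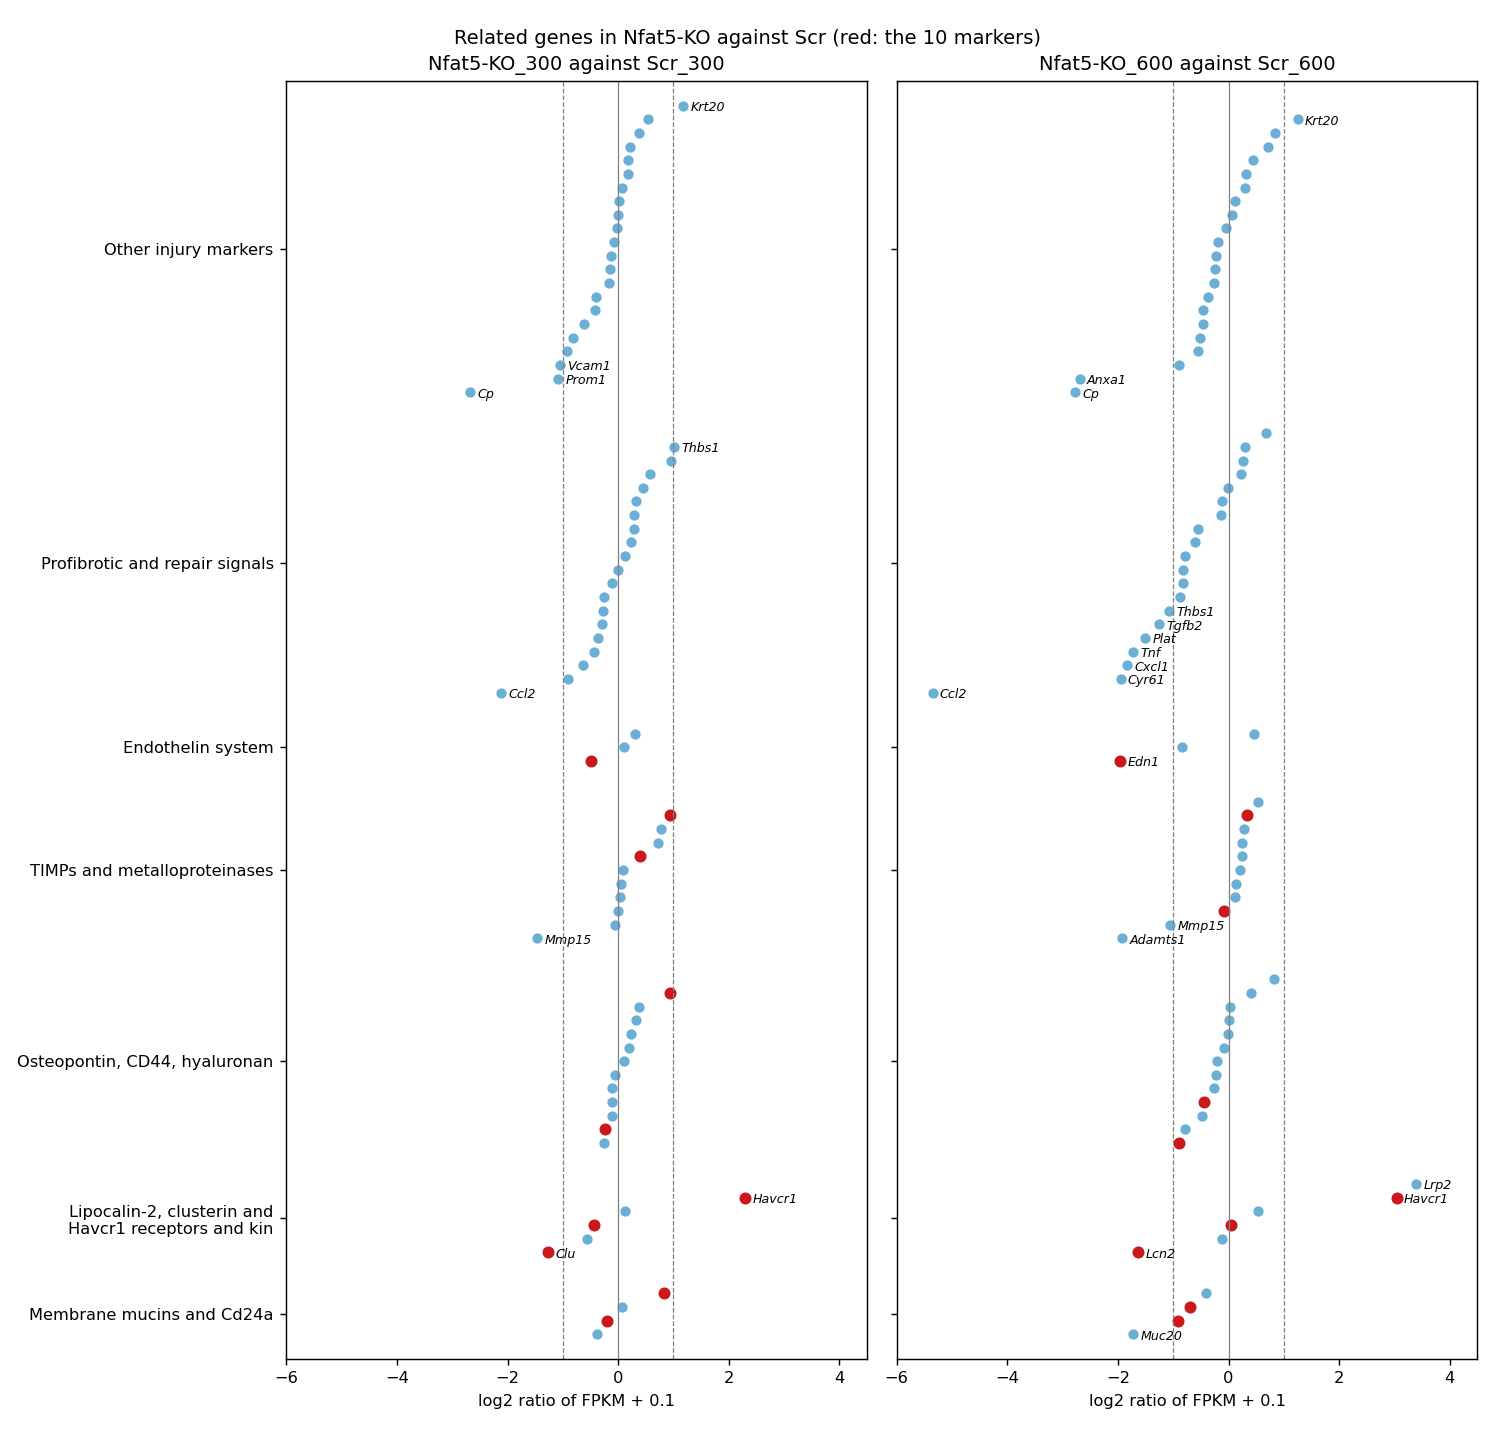
Log2 ratio of FPKM + 0.1 in Nfat5-KO against Scr (horizontal axes) at 300 (left) and 600 mosmol/kg (right) for the genes of 7 lists (rows), markers in red and related genes in blue, ordered by value within a list. Dashed lines mark 2-fold, and genes past it are named. At 600 mosmol/kg 7 of the 20 repair and fibrosis signals lie left of the lower line, against 3.68% of all genes. Among these, Ccl2, Tnf and Tgfb2 reached 0.5 FPKM through Scr_600 alone, so they could only lie left of 0.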

How the data were processed

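The processed table deposited with the 12 libraries was used. Per the labels and the study's methods, poly(A) RNA was sequenced in paired-end reads, which the authors filtered for adapters and low quality, mapped to GRCm38/mm10 with HISAT2 and counted per gene with HTSeq. The authors deposited FPKM, 1 value per gene and group. How libraries were combined, the tool versions and the annotation release are not given in the sources used here. The libraries' own values were not analysed here.

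Of 54839 rows, 2436 without a value, 311 exact duplicates and the rows of 37 repeated symbols were left out, which left 52015 genes. FPKM summed to 253756 in Scr_300, 231932 in Scr_600, 251080 in Nfat5-KO_300 and 212247 in Nfat5-KO_600. These sums are not reads, so precision per value is unknown.

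Ratios, counts and medians were calculated in Python 3.11.15 with pandas 2.3.3 and numpy 2.4.6, and tested on simulated data. A pseudocount of 0.1 FPKM, a filter of 0.5 FPKM in at least 1 group compared and a limit of 2-fold were used. Percentiles refer to all genes measured in a comparison. Similar transcripts were searched with blastn 2.17.0, at an identity of at least 90% over at least 150 bases. Gene positions come from GENCODE M21. Named were all 10 markers, up to 3 genes past 2-fold with the largest ratios per list and comparison, the markers' receptors and partners, and Nfat5. Other genes (Akr1b3, Sox9, Vim, Tgfb1, Lrp8, Mme, Adam10, Adam17, Timp4, further relatives and cell type markers) were chosen after their values were seen. The markers and lists were chosen with earlier results of these data known. Of the related genes, 2 are not reported here and enter no list count.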

Additional observations from a re-analysis of the deposited data

Results flagged for a closer look

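With 1 value per group, none of the differences in this section was tested. Markers that moved in opposite directions at 600 against 300 mosmol/kg in both genotypes are given by the log2 ratio in Nfat5-KO minus that in Scr. This was -1.20 for Lcn2 (0.89 in Scr, -0.30 in Nfat5-KO), -1.47 for Edn1 (0.12 and -1.35) and 0.74 for Havcr1 (-0.09 and 0.66, with both Scr groups under 0.5 FPKM). The Scr ratios of Edn1 and Havcr1 were small.

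Markers whose ratio of Nfat5-KO against Scr had opposite signs at both osmolalities were Clu, with a difference of 1.31 (-1.27 at 300 and 0.04 at 600 mosmol/kg), Muc1 with -1.52 (0.83 and -0.69), Cd44 with -1.39 (0.94 and -0.45) and Timp1 with -1.01 (0.93 and -0.08). For Clu and Timp1 the ratio at 600 mosmol/kg was close to 0. It changed its sign for Timp1, to 0.05, with an equal FPKM sum.

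Of the related genes with a difference of at least 1 on the log2 scale, opposite signs of the osmolality ratio were found for Adamts1 (-1.90), Anxa1 (-1.77), Csf1 (-1.15), Cyr61 (-1.04), Muc20 (-1.79), Plaur (-1.18) and Vldlr (1.10). Opposite signs of the genotype ratio were found for Csf1, Muc20, Plaur and Vldlr as well, and for Plau (-1.17), Prom1 (1.40) and Thbs1 (-2.09). These genes are listed because the group values moved one way in 1 contrast and the opposite way in the other.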

How the results depend on the processing

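The settings tried were a pseudocount of 1 or 0.01 FPKM, counting without a filter, requiring a mean of 1 FPKM over the groups, median-of-ratios factors (0.971 to 1.03) and, chosen after seeing the data, an equal FPKM sum. No log2 ratio of a marker past 2-fold changed its sign. Of 300 recalculated marker ratios, 293 stayed on their side of 2-fold, 6 no longer passed it and 1 passed it newly: Cd44 in Scr cells (-0.89 with a pseudocount of 1, -0.95 with an equal sum), Havcr1 at 300 mosmol/kg (0.93 with a pseudocount of 1), the Timp1 difference (-0.96 with a pseudocount of 1, -0.99 with median-of-ratios factors, -0.90 with an equal sum) and Lcn2 in Scr cells (1.02 with an equal sum). The number of markers at least 2-fold higher in Nfat5-KO_300 than in Scr_300 was 0 under a pseudocount of 1 and 0 when a mean of 1 FPKM was required, and in Nfat5-KO_600 against Scr_600 it was 0 with a mean of at least 1 FPKM, because Havcr1 is low. The equal sum moved the median of all genes most in Nfat5-KO_600 against Nfat5-KO_300, from -0.04 to 0.20.

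The counts over all genes depended on the treatment of low genes. With a pseudocount of 1 FPKM, higher and lower genes numbered 251 and 124 in Scr_600 against Scr_300, 259 and 230 in Nfat5-KO_600 against Nfat5-KO_300, 48 and 87 in Nfat5-KO_300 against Scr_300, 135 and 203 in Nfat5-KO_600 against Scr_600, and 139 and 165 for the difference of responses. Without a filter they were, in the same order, 1098 and 737, 1422 higher, 581 and 647, 1086 and 798, and 1258 and 891. With a mean of at least 1 FPKM they were 345 and 209, 453 higher, 117 and 163, 246 and 277, and 235 and 228. With an equal sum, 1318 and 274 were counted in Nfat5-KO_600 against Nfat5-KO_300. No paired analysis was possible because the table holds 1 value per group and no library numbers. For the same reason no replicate could be left out, and the values show neither the spread between libraries nor that between clones.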

Other observations

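Of the 8 principal cell and epithelial markers that reached 0.5 FPKM, 3 had their highest level in Nfat5-KO_600, as Havcr1 and Timp2 did, and 5 did not. Gata3, a transcription factor gene of the collecting duct, had 3.41 FPKM in Scr_300 and 4.33 in Scr_600, against 11.8 in Nfat5-KO_300 and 30.0 in Nfat5-KO_600. Hsd11b2, whose enzyme keeps glucocorticoids from the mineralocorticoid receptor, had 0.383 FPKM, 0.655 FPKM, 1.95 FPKM and 6.18 FPKM in the same groups. Scnn1a, the gene of the alpha subunit of the epithelial sodium channel, had 2.95 FPKM, 1.31 FPKM, 3.56 FPKM and 7.03 FPKM. Aqp3, a water channel gene of principal cells, differed little, with 2.91 FPKM, 2.07 FPKM, 2.93 FPKM and 2.82 FPKM, and the cadherin gene Cdh1 was highest in Nfat5-KO_300, with 79.8 FPKM, 72.7 FPKM, 103 FPKM and 84.1 FPKM. The summed FPKM of the 14 markers, most of it from Krt8, Krt18 and Epcam, went the other way, from 1500 in Scr_300 and 1140 in Scr_600 to 1390 in Nfat5-KO_300 and 998 in Nfat5-KO_600.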
